A study of Mus musculus with 16 samples.

Results

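The smooth muscle contractile genes Acta2, Tagln, Smtn, Myh11, Cnn1, Myl9, Des and Myocd were followed through bulk RNA-seq of mouse spinal cord. They were chosen by gene symbol and make up 8 of the 24411 genes in the tables. Of the 16091 genes with a mean above 1 TPM (a read-based level scaled for transcript length and library size) in at least 1 of the 3 conditions, 7 were members, and Myocd fell below that limit. All 16 mice were female C57BL/6J. In 14 of them the cord was compressed laterally to 0.25 mm at T8-9 at 12 weeks of age and taken 6 weeks later. Of these, 7 received atorvastatin, a statin that blocks HMG-CoA reductase, at 10 mg/kg daily (SCI + Atorvastatin) and 7 received the carrier of DMSO, PEG400, Tween 80 and saline (SCI + Vehicle), both starting 2 weeks after the injury and lasting 4 weeks. The 2 Uninjured Control mice had neither injury nor treatment. Their labels give an age of 12 weeks, as for all mice, while the study's methods give 14 weeks when their cord was taken. By those methods they were younger than the SCI mice at that point, so injury, carrier and age cannot be told apart against them. RNA came from a 5 mm piece of cord holding all its cell types and vessels, and in such tissue fewer cells of a type and less RNA per cell cannot be told apart.

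Smooth muscle cells wrap the arterioles and larger vessels of the cord and its meninges, and set vessel diameter by sliding actin filaments over myosin. Calcium activates myosin light chain kinase, which phosphorylates the regulatory light chain and starts contraction, while calponin, transgelin and smoothelin bind and organise the actin filaments. The genes are switched on together by serum response factor, which sits on a DNA element named the CArG box, and by its coactivator myocardin. They are not private to smooth muscle: pericytes and scar myofibroblasts can express Acta2, Tagln and Myl9, and desmin is abundant in skeletal muscle.

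Promoter sequence of RefSeq (GRCm38.p6, from 250 bases before to 50 after the start) was at hand for 5 members, namely Acta2, Smtn, Cnn1, Myl9 and Des. It was searched on both strands for the CArG box, CC and GG around 6 bases that are each A or T, allowing up to 1 other base among the 6, with overlapping matches kept. Myl9 held 1 exact match 161 bases before its start and a second match with 1 other base 99 bases before it. Acta2 held 2 matches with 1 other base, 84 and 34 bases before its start. Each start is the one set by the promoter window, which for Acta2, Cnn1 and Myl9 lies inside the gene span given below. No match lay in the window of Smtn, Cnn1 or Des. Of 32851 promoters searched the same way, 1.63% held an exact match and 9.98% a match with up to 1 other base. The promoters of Acta2 and Myl9 are shown because they hold the matches, and that of Smtn because this gene and Myl9 had the smallest p between the treatments. Capitals mark the matches. The regions are chr19:34255324-34255623 on the minus strand for Acta2, chr2:156775214-156775513 on the plus strand for Myl9 and chr11:3539243-3539542 on the minus strand for Smtn.
Acta2: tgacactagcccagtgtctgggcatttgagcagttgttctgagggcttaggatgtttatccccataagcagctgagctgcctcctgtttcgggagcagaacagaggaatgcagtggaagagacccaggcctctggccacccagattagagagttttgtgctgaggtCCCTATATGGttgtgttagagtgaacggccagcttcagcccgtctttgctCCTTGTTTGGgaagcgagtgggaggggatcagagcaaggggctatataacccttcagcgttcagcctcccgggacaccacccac
Myl9: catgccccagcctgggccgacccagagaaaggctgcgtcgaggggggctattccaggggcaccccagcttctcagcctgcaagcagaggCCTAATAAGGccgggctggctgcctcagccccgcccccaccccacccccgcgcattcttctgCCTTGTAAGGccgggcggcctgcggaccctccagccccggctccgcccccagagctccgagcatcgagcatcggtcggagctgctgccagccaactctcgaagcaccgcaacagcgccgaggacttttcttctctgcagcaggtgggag
Smtn: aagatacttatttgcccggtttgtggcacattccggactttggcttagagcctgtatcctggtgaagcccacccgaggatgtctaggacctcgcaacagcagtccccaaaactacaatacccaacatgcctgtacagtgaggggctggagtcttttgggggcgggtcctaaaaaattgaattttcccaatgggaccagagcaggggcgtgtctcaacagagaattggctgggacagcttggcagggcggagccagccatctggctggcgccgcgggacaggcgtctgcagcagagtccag

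In the same build, Acta2 lies at chr19:34240336-34255585, Tagln at chr9:45929628-45936058, Smtn at chr11:3517522-3539292, Myh11 at chr16:14194527-14292188 and Myocd at chr11:65173608-65269989, all on the minus strand. Cnn1 (chr9:22099221-22109221), Myl9 (chr2:156775408-156781657) and Des (chr1:75360292-75368579) lie on the plus strand. Genes on the opposite strand share exonic bases with Tagln (62.4% with Gm48529 and 5.43% with Pcsk7), Smtn (16.3% with Gm11946 and 0.89% with Gm11947) and Des (5.86% with Gm15179). The strand setting of the counting was not stated, so reads of these partners cannot be told apart from those of the 3 members.

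Total counts ran from 14823292 to 25579826 per mouse, lowest in SCI + Vehicle replicate 4. The Uninjured Control libraries had 20211276 and 22368736 counts but fell on fewer genes, 12732 and 12356 against 16399 to 19338 in the SCI mice. Of 3245 genes averaging 200 to 500 counts in the SCI mice, 13.9% and 17.6% were listed at 0 in control replicates 1 and 2, 20.8% in only 1 of them, and at most 0.247% in any SCI mouse. The controls also differed from the SCI mice in 7 liver genes, whose summed level was 6323 and 1144 TPM in the controls and at most 11.96 TPM in the SCI mice. Among the SCI mice, SCI + Atorvastatin replicate 2 and SCI + Vehicle replicate 3 carried far more skeletal muscle transcript than their groups. SCI + Vehicle replicate 4 was the shallowest library, and SCI + Vehicle replicate 7 had counts on the fewest genes of the SCI mice, 16399. The cord label held, since the neuronal genes Rbfox3 and Snap25, the myelin gene Mbp and the astrocyte genes Gfap and Aqp4 had counts in every mouse. Against the controls, Gfap and Aqp4 were called higher and Rbfox3 and Snap25 lower in both SCI groups, and Mbp lower in SCI + Atorvastatin.

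Injured cord held a graded set of contractile transcripts. By median TPM in SCI + Vehicle, Tagln led at 30.92, followed by Myh11 at 20, Acta2 at 19.42, Myl9 at 18.49, Smtn at 15.83, Des at 4.1, Cnn1 at 1.33 and Myocd at 0.05. In SCI + Atorvastatin the order was Tagln at 55.58, Myl9 at 31.75, Smtn at 27.04, Acta2 at 21.79, Myh11 at 20.56, Des at 4.49, Cnn1 at 0.73 and Myocd at 0.26. Neighbours in these orders were compared within mice by an exact sign-flip permutation test of log2(TPM + 1), two-sided, in 14 tests. None passed after Benjamini-Hochberg adjustment, the smallest adjusted p being 0.0729 at a smallest possible unadjusted p of 0.0156. The middle members Myh11, Acta2, Myl9 and Smtn were therefore not separated in SCI + Vehicle, where Myh11 exceeded Acta2 in 5 of 7 mice and Acta2 exceeded Myl9 in 3 of 7.

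**Figure D1:**
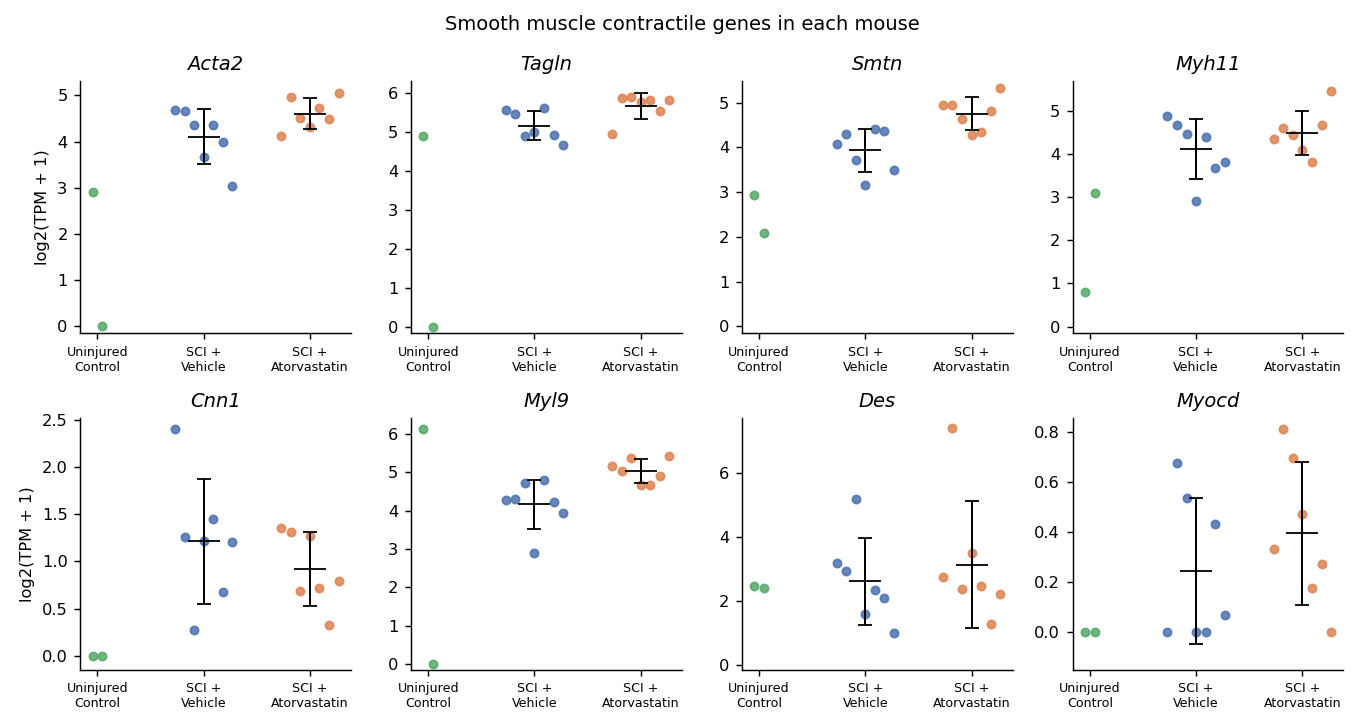
Level of each contractile gene as log2(TPM + 1), with 1 point per mouse in Uninjured Control (n = 2), SCI + Vehicle (n = 7) and SCI + Atorvastatin (n = 7). Black bars give the mean and SD of the log2 values in the SCI groups, and panels differ in their vertical scale. The Uninjured Control points of Acta2, Tagln and Myl9 lie far apart, with 1 of the 2 mice at 0, and Cnn1 and Myocd are at 0 in both.

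The first comparison asked whether atorvastatin changed these genes in the injured cord. Smtn and Myl9 were the members that differed most clearly, each about 0.8 higher on the log2 scale in SCI + Atorvastatin, and Tagln was higher by 0.43. At the threshold used between treatments, unadjusted p below 0.001 with a change over 25%, 0 of 7 members were called by edgeR's quasi-likelihood test, against 0.106% of all 16091 genes (0.087% higher and 0.0186% lower). At unadjusted p below 0.05, 3 of 7 members (Smtn, Myl9 and Tagln) were higher and none lower, where 4.02% of all genes were higher and 3.01% lower. No gene of the 16091 passed an adjusted p of 0.05 with edgeR or DESeq2, and the smallest edgeR adjusted p over all genes was 0.680. Fold changes of 6 of 7 members were above 0, compared with 48.7% of all genes, and the median over the members was 0.44 on the log2 scale beside -0.0014 over all genes.

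Myl9 encodes the regulatory light chain of smooth muscle myosin, the protein phosphorylated at the start of contraction. Its level ran from 6.38 through a median of 18.49 to 27.04 TPM in SCI + Vehicle, and from 24.29 through 31.75 to 42.13 TPM in SCI + Atorvastatin. The TPM ranges overlapped, whereas in CPM, counts scaled to the library total with no correction for length, every SCI + Atorvastatin mouse lay above every SCI + Vehicle mouse, as was the case for 0.0497% of all genes tested (0.0249% lay the other way round). The means were 18.3 ± 6.93 and 32.4 ± 7.22 TPM (SD, n = 7 each). The log2 fold change was 0.76 ± 0.215 (SE), with a 95% interval from 0.31 to 1.21 (edgeR unadjusted p = 0.00199, adjusted p = 0.680). An exact permutation test of log2(CPM + 1), two-sided, gave p = 0.000583, the smallest of the 8 members and not adjusted for the number of genes.

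Smtn encodes smoothelin, an actin-binding protein of contractile smooth muscle. In SCI + Vehicle its lowest, median and highest levels were 7.94, 15.83 and 20.29 TPM, and in SCI + Atorvastatin they were 18.3, 27.04 and 38.93 TPM. In CPM, 6 of 7 SCI + Atorvastatin mice exceeded the highest SCI + Vehicle mouse. The mean level was 14.95 ± 4.86 TPM with vehicle and 26.7 ± 7.13 TPM with atorvastatin (SD, n = 7 each). Its log2 fold change was 0.81 ± 0.218 (SE), with a 95% interval from 0.35 to 1.26 (edgeR unadjusted p = 0.00133, adjusted p = 0.680). The exact permutation p, two-sided, was 0.00524. DESeq2 called both Smtn (DESeq2 adjusted p = 0.204, unadjusted p = 0.000168) and Myl9 (DESeq2 adjusted p = 0.339, unadjusted p = 0.000805), so that the count of called members rose to 2 with that tool. Over all 16091 genes, DESeq2 called 37 where edgeR called 17.

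Tagln encodes transgelin (SM22), which binds actin filaments. Its level spanned 24.32 to 47.88 TPM around a median of 30.92 in SCI + Vehicle, and 30.02 to 58.55 TPM around 55.58 in SCI + Atorvastatin. Of the 7 SCI + Atorvastatin mice, 6 lay above the SCI + Vehicle median in CPM, and the groups overlapped. The log2 fold change was 0.43 ± 0.191 (SE), with a 95% interval from 0.032 to 0.83 (edgeR unadjusted p = 0.0354, adjusted p = 0.693).

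The actin and myosin of the filaments themselves did not pass. Acta2, smooth muscle alpha-actin, ran from 7.23 through 19.42 to 24.69 TPM in SCI + Vehicle and from 16.46 through 21.79 to 32.37 TPM in SCI + Atorvastatin. Its log2 fold change was 0.44, close to the 0.43 of Tagln, with a 95% interval from -0.034 to 0.91 (edgeR unadjusted p = 0.0674). Myh11, the smooth muscle myosin heavy chain, ran from 6.47 through 20 to 28.18 TPM and from 13.1 through 20.56 to 42.87 TPM in the same groups. Its fold change was 0.32 on the log2 scale, with a 95% interval from -0.19 to 0.84 (edgeR unadjusted p = 0.200). For both genes the groups overlapped over most of their range, and the intervals allow differences from slightly below 0 to above 0.8.

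Cnn1 and Myocd were low throughout. Cnn1 encodes calponin 1, an inhibitor of the myosin ATPase, and its median was 1.33 TPM in SCI + Vehicle (0.21 to 4.3) and 0.73 TPM in SCI + Atorvastatin (0.25 to 1.56). Its log2 fold change of -0.33 had a 95% interval from -1.66 to 1.00 (edgeR unadjusted p = 0.611). It was the only member with a value below 0, and without SCI + Vehicle replicate 1, the highest mouse, the value was 0.13. Myocd, the myocardin coactivator, had between 0 and 37 counts per SCI + Vehicle mouse and between 1 and 30 per SCI + Atorvastatin mouse. A difference in Myocd was not detectable at this depth (exact permutation p = 0.531, two-sided).

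**Figure D2:**
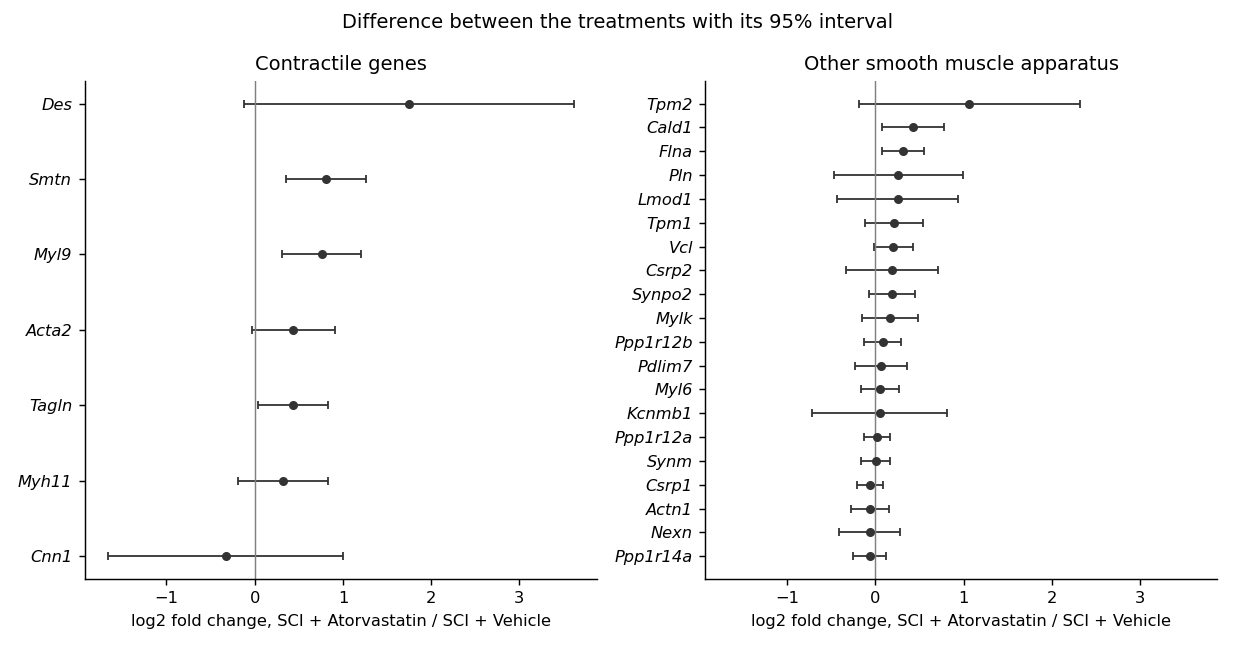
Log2 fold change of SCI + Atorvastatin over SCI + Vehicle for the 7 contractile genes tested (left) and 20 other genes of the smooth muscle apparatus (right). Points are edgeR estimates, bars their 95% intervals, and the vertical line marks no difference. The intervals of Smtn, Myl9 and Tagln lie above 0, as do those of Cald1 and Flna, and the intervals of Des and Cnn1 are the widest of the contractile genes.

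Des, the intermediate filament that links contractile units, moved with skeletal muscle transcript. In SCI + Atorvastatin replicate 2 its level was 169.87 TPM, and in the other 6 mice of the group 1.43 to 10.26 TPM. In SCI + Vehicle replicate 3 it was 35.75 TPM, and 0.98 to 8.13 TPM in the other 6. The same mice had the highest summed level of 13 skeletal muscle genes, such as Acta1, Myh1 and Ckm, at 6344.61 TPM against 27.55 to 312.44 in the rest of SCI + Atorvastatin and at 1613.24 TPM against 9.61 to 49.29 in the rest of SCI + Vehicle. All 13 skeletal muscle genes were higher in SCI + Atorvastatin and none passed unadjusted p below 0.05. The log2 fold change of Des between treatments was 1.74 ± 0.899 (SE) with all mice (edgeR unadjusted p = 0.0660), -0.79 without SCI + Atorvastatin replicate 2 and 0.19 without both mice. The levels of Smtn and Myl9 did not follow this pattern, since without both mice their fold changes were 0.72 (edgeR unadjusted p = 0.00642) and 0.77 (edgeR unadjusted p = 0.00527). Tagln was 0.35 without them and no longer under 0.05 (edgeR unadjusted p = 0.104).

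**Figure D3:**
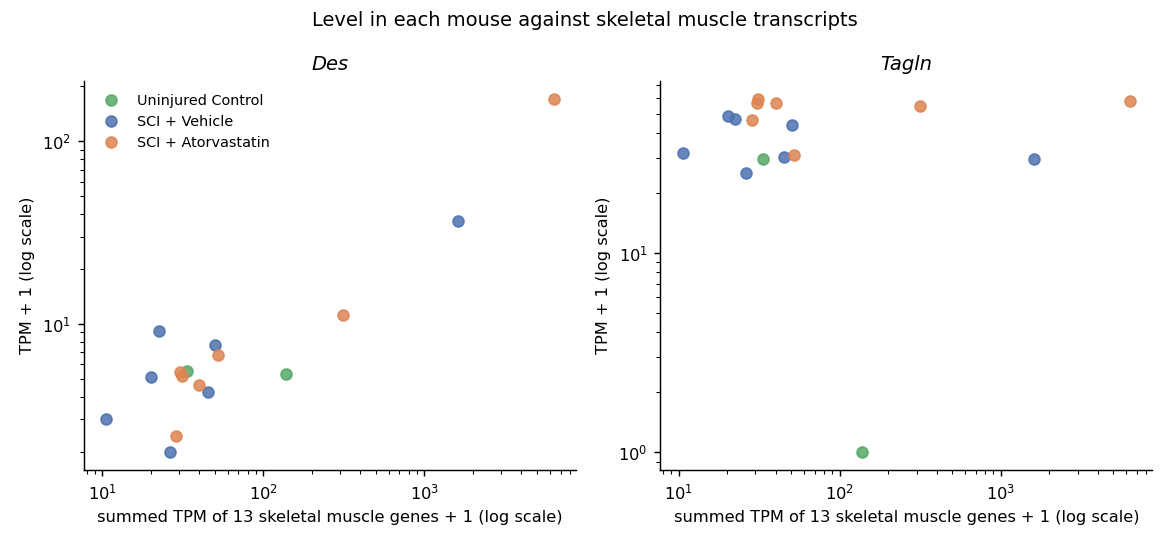
TPM + 1 of Des (left) and Tagln (right) against the summed TPM + 1 of 13 skeletal muscle genes, both axes on a log scale, with 1 point per mouse. The 2 mice with the most skeletal muscle transcript, at 6344.61 and 1613.24 TPM, also hold the highest Des levels, at 169.87 and 35.75 TPM, while Tagln in these mice, 56.9 and 28.84 TPM, lies within the range of their groups.

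Within the SCI groups most pairs of contractile genes had a Pearson correlation above 0, although no single correlation passed. Over all 21 pairs, 19 were above 0 in SCI + Vehicle, with a median r of 0.623 (median rho 0.643). In SCI + Atorvastatin 18 were, with a median r of 0.422 but a median rho of 0.179. The pairs without Des or Cnn1, a subset set apart within the same values, are given next. Among the 10 pairs formed by Acta2, Tagln, Smtn, Myh11 and Myl9, all 10 Pearson correlations were above 0 in each group, with a median r of 0.76 over the 7 SCI + Vehicle mice (median rho 0.714) and 0.558 over the 7 SCI + Atorvastatin mice (median rho 0.518). In SCI + Atorvastatin, Tagln with Smtn (r = 0.025, rho = -0.107) and with Myh11 (r = 0.143, rho = -0.0714) were near 0. How often other sets of genes correlate in this way was not computed. For each pair, the 2 mice farthest from the median of its first gene were then left out. This left 9 of 10 above 0 in SCI + Vehicle and 10 of 10 in SCI + Atorvastatin, with medians of 0.755 and 0.346. The mice left out could differ between pairs, and leaving out the same 2 mice throughout was not computed. Of 42 correlations tested over all 21 pairs and both groups by exact permutation, none passed after adjustment, the smallest adjusted p being 0.163 for r and 0.172 for rho. SCI + Vehicle replicates 4 and 7 were each the lowest mouse of their group for 3 of the 7 members and among the lowest 2 for 5 of 7, and SCI + Atorvastatin replicate 7 was the highest for 4 of 7. Over the 14 SCI mice with group means removed, genes outside the lists with levels most like the members' mean z-score included Fam180a (r = 0.948), Ddr2 (0.927), Sfrp4 (0.909), Nrros (0.908), Lbp (0.908), Aox3 (0.907), Dpt (0.901), Ano6 (0.900) and Adh1 (0.899).

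Genes of fibroblasts had fold changes in the same direction as Smtn and Myl9. All 9 fibroblast genes (Col1a1, Col1a2, Col3a1, Dcn, Lum, Pdgfra, Postn, Fn1 and Col5a1) were higher in SCI + Atorvastatin, 7 of them at unadjusted p below 0.05, with a median log2 fold change of 0.80 compared with 0.44 over the contractile genes. Their summed level was 151.26 to 944.6 TPM in SCI + Vehicle, 719.64 to 1491.68 TPM in SCI + Atorvastatin, and 198.49 and 228.31 TPM in the controls. Of 11 pericyte genes, 10 were higher in SCI + Atorvastatin and 2 of them (Pdgfrb and Vtn, named after their values were seen) at p below 0.05, and their sum was 183.95 to 488.77 TPM with vehicle and 416.5 to 569.39 TPM with atorvastatin. Of 9 endothelial genes 8 were higher, 1 of them (Kdr, likewise named) at p below 0.05, and the sums were 153.89 to 249.54 TPM and 204.9 to 275.27 TPM. None of these genes was called with edgeR or DESeq2, where DESeq2 placed 5 fibroblast, 0 pericyte and 1 endothelial gene at unadjusted p below 0.05, and no listed gene of these cell types was at 0 throughout the SCI mice. SCI + Vehicle replicates 4 and 7 had the 2 lowest fibroblast sums, at 235.18 and 151.26 TPM, and the 2 lowest pericyte sums, at 220.66 and 183.95 TPM. Without these mice the fold change of Smtn was 0.55 (edgeR unadjusted p = 0.00367) and of Myl9 0.54 (edgeR unadjusted p = 0.00294), while Tagln was 0.28, Acta2 0.20 and Myh11 0.094, none of the last 3 under an unadjusted p of 0.05. The fibroblast genes then had a median of 0.46, with 4 of 9 at unadjusted p below 0.05. The part of these cell types in the values of Smtn and Myl9 was not tested.

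**Figure D4:**
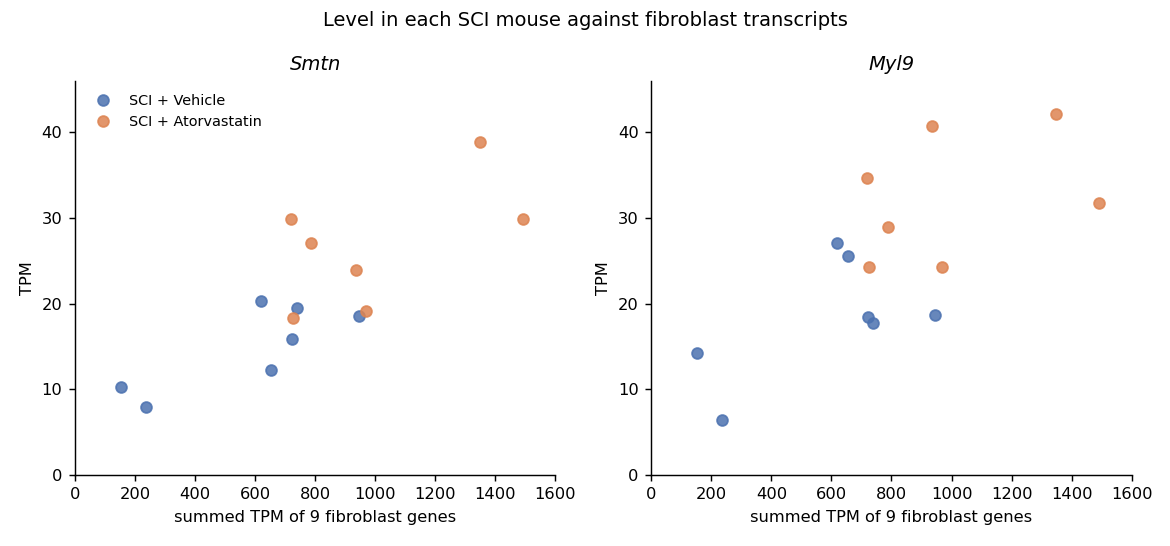
TPM of Smtn (left) and Myl9 (right) against the summed TPM of 9 fibroblast genes in the 14 SCI mice, with 1 point per mouse. The 2 SCI + Vehicle mice with the lowest fibroblast sums, 151.26 and 235.18 TPM, are also the lowest of all 14 for both genes, and above 600 TPM the SCI + Atorvastatin points lie mostly above the SCI + Vehicle points.

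Most other genes of the smooth muscle apparatus differed little between the treatments. Of 20 tested, 16 had a fold change above 0, with a median of 0.12 on the log2 scale. None was called with edgeR or DESeq2. The largest value was that of Tpm2, at 1.06 (edgeR unadjusted p = 0.0920). It was 0.32 without SCI + Atorvastatin replicate 2 and SCI + Vehicle replicate 3, the mice high in skeletal muscle transcript. At unadjusted p below 0.05, Cald1 (caldesmon, an actin-binding inhibitor of contraction) was higher by 0.43 (edgeR unadjusted p = 0.0194) and Flna (filamin A, an actin cross-linker) by 0.31 (edgeR unadjusted p = 0.0124), both with an adjusted p of 0.680 and both named after their values were seen. Of 10 regulators of the contractile program, Klf4, a zinc-finger repressor of smooth muscle genes, was called higher by 0.66 ± 0.171 on the log2 scale (SE, edgeR unadjusted p = 0.000939, adjusted p = 0.680). Klf4 stayed above 0 with each mouse left out in turn, between 0.56 and 0.75, and was called in 2 of these 14 fits. Srf itself, at 0.085, was not called (edgeR unadjusted p = 0.543). Among 13 genes listed as non-muscle counterparts, mostly actins, myosins and calponins of other cells, 9 were higher and 3 at p below 0.05, namely Myh9 by 0.26, Myl12a by 0.36 and Vim by 0.23 (also named after their values were seen). The 9 include Smtnl1, at 2.46. Its highest counts, 230 and 37, were in SCI + Atorvastatin replicate 2 and SCI + Vehicle replicate 3, the mice high in skeletal muscle transcript. The median over these counterparts was 0.12.

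The other comparisons asked how the injured cord of each treatment differed from uninjured cord. Both used the same 2 control mice. Fold changes of 6 of 7 members were above 0 in both comparisons, beside 57.3% and 58.3% of all genes, but the 2 controls lay far apart for several members and few were called. At adjusted p below 0.05 and a change over 25%, 1 of 7 members, Cnn1, was called higher in SCI + Vehicle, where 29.4% of all genes were called, 19.8% higher and 9.55% lower. In SCI + Atorvastatin 3 of 7 were called higher (Cnn1, Myh11 and Smtn), where 38.9% of all genes were called, 24.9% higher and 14% lower. Cnn1 passed the TPM limit only through SCI + Vehicle, with a mean of 1.55 TPM. Its mean was 0.956 TPM in SCI + Atorvastatin and 0 in the controls. A gene kept only for its level in SCI + Vehicle favours a call there, so no support is drawn from that call. The median log2 fold change over the members was 1.29 and 2.55, beside 0.17 and 0.21 over all genes.

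Of the 8 members, 2 (Cnn1 and Myocd) had 0 counts in both controls and 3 (Acta2, Tagln and Myl9) had 0 in replicate 2 alone. For scale, 20.8% of the 3245 genes averaging 200 to 500 counts in the SCI mice were at 0 in only 1 control. The share over all genes tested was not computed. Acta2 had 135 counts in control replicate 1 and 0 in replicate 2, and Myl9 617 and 0, while Tagln stood at 28.74 and 0 TPM. Myh11 had 41 and 423 counts, and Des 115 and 104. Of the 6 members with counts in a control, Smtn and Des were those on which the 2 controls came closest to each other.

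Smtn stood at 6.63 and 3.23 TPM in the controls, below every SCI + Vehicle mouse and every SCI + Atorvastatin mouse in TPM. In CPM, every SCI + Atorvastatin mouse and 4 of 7 SCI + Vehicle mice exceeded both controls. Its log2 fold change was 0.65 in SCI + Vehicle (edgeR adjusted p = 0.320) and 1.49 in SCI + Atorvastatin (edgeR adjusted p = 0.00436). Leaving out control replicate 1 or 2 gave 1.06 or 0.34 with vehicle and 1.89 or 1.16 with atorvastatin. The difference between these values is the treatment comparison given above, which was not called.

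Myh11 stood at 0.73 and 7.59 TPM in the controls, and every SCI mouse exceeded both in CPM. In TPM, SCI + Vehicle replicate 4, at 6.47, lay below control replicate 2. The log2 fold change was 2.20 in SCI + Vehicle (edgeR adjusted p = 0.0513) and 2.55 in SCI + Atorvastatin (edgeR adjusted p = 0.0171). It was 4.57 and 4.91 without control replicate 2, and 1.36 and 1.71 without control replicate 1. Cnn1, at 0 in both controls, was at least 8.28-fold higher in SCI + Vehicle and at least 6.55-fold higher in SCI + Atorvastatin, taking a floor of 3 counts per control library (edgeR adjusted p = 0.0198 and 0.00384). Its counts ran from 3 to 76 and from 6 to 35 in the 2 SCI groups. The mean of Myocd, on the same floor, was at least 3.98-fold and at least 5.08-fold higher, with 3 and 1 SCI mice at or under 3 counts. Such bounds cover counting error only, and hold only if a 0 meant at most 3 counts. Of genes averaging 200 to 500 counts in the SCI mice, 13.9% and 17.6% were at 0 in the controls.

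Acta2 exceeded both controls in CPM in every SCI mouse, but its log2 fold changes of 2.32 and 2.78 did not pass (edgeR adjusted p = 0.184 and 0.0859). Against control replicate 1 alone they were 1.32 and 1.77. Tagln, at 28.74 and 0 TPM in the controls, gave 1.29 and 1.74 (edgeR adjusted p = 0.448 and 0.271), and 0.29 and 0.74 against control replicate 1 alone. Myl9 had the highest level of any mouse in control replicate 1, 68.38 TPM, and 0 in replicate 2. Its log2 fold changes of -1.01 and -0.22 did not pass (edgeR adjusted p = 0.563 and 0.908), and no direction can be read from 2 controls that far apart. Des gave 0.91 and 2.68 (edgeR adjusted p = 0.589 and 0.305), and -0.064 and 0.15 without the mice high in skeletal muscle transcript.

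Counted by separation, every SCI + Vehicle mouse lay above both controls in CPM for 3 of 8 members (Acta2, Myh11 and Cnn1), beside 25.2% of all genes tested (10.6% lay below both). Every SCI + Atorvastatin mouse did so for 5 of 8 (Acta2, Smtn, Myh11, Cnn1 and Myocd), beside 30.4% (13.3% below both). Myocd is not among the genes tested that these shares cover. Its separation rests on 1 count in SCI + Atorvastatin replicate 7 against 0 in the controls. With 7 against 2 mice, an exact permutation test over 36 assignments cannot go below p = 0.0278.

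The rest of the apparatus held genes called in both directions, at shares near those of all genes. Of 20 genes, 5 were called higher and 3 lower in SCI + Vehicle, beside 19.8% and 9.55% of all genes, and 7 higher and 3 lower in SCI + Atorvastatin, beside 24.9% and 14%, with median log2 fold changes of 0.25 and 0.49. Kcnmb1, a subunit of the calcium-activated potassium channel of smooth muscle, and Lmod1, the actin nucleator leiomodin, were at 0 in both controls. On the same floor, and with the same limit, the mean of Kcnmb1 was at least 42.8-fold and at least 44.0-fold higher. That of Lmod1 was at least 28.5-fold and at least 34.2-fold higher. Flna was higher by 1.58 and 1.92 on the log2 scale. Of the genes called lower, Csrp1 fell by 0.52 and 0.55 and Ppp1r14a, the myosin phosphatase inhibitor CPI-17, by 0.65 and 0.69, while Tpm1 fell by 0.57 in SCI + Vehicle and Myl6 by 0.41 in SCI + Atorvastatin. The part of cells other than smooth muscle in these values was not tested.

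Of the 10 regulators, Elk1, a partner of serum response factor, was higher by 1.15 and 1.17 and Rock1, a kinase that holds contraction, by 0.77 and 0.89. Heyl, a Notch target, fell by 1.13 with atorvastatin, and its value with vehicle was -1.28 (edgeR adjusted p = 0.0509). Non-muscle counterparts were called higher for 4 and lower for 3 of 13 genes in both comparisons. Beside them, 19.8% and 24.9% of all genes were called higher, and 9.55% and 14% lower. Cnn2 was at 0 in both controls and, on the same floor and with the same limit, at least 61.7-fold and at least 84.5-fold higher. Cnn3 rose by 1.15 and 1.29, and Vim, the intermediate filament vimentin, by 2.86 and 3.11. Myh10, Myl12b and Smtnl2 fell in both.

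Marker genes of vessel-associated cells were read beside these values. For scale, 19.8% of all genes were called higher and 9.55% lower in SCI + Vehicle, and 24.9% higher and 14% lower in SCI + Atorvastatin. Pericyte genes were called higher for 3 of 11 in SCI + Vehicle (Rgs5, Cspg4 and Higd1b) and 5 of 11 in SCI + Atorvastatin, and none lower. Fibroblast genes were called higher for 0 of 9 in SCI + Vehicle, with 3 of 9 at unadjusted p below 0.05 in edgeR, and for 7 of 9 in SCI + Atorvastatin. The count in SCI + Vehicle was 6 of 9 without replicates 4 and 7 and 3 of 9 with DESeq2, and in SCI + Atorvastatin it was 9 of 9 with DESeq2. Of all 16091 genes, DESeq2 called 6000 and 7207 in either direction. Without replicates 4 and 7, edgeR called 4379 in SCI + Vehicle. Endothelial genes were called higher for 1 of 9 (Emcn) and 2 of 9 (Emcn and Pecam1). Skeletal muscle genes were called higher for 2 and 1 of 13, Tnni3 was the 1 of 3 cardiac genes called higher in both, and 7 of 7 liver genes were lower in both. The part of these tissues in the differences of the contractile genes from the controls was not tested.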

How the data were processed

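Whole-number counts per gene and TPM values for 24411 gene symbols in 16 mice were deposited by the authors. Per the labels and the submitters' processing notes, reads were checked with FastQC 0.12.1, trimmed with Trimmomatic 0.38, aligned to mm10 with STAR 2.5.4b and quantified with RSEM 1.3.1. The step that made whole-number counts from RSEM estimates is not given in the sources used here. The library kit amplifies total RNA, and a count is a read rather than a unique molecule, so bounds cover counting error only.

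Genes with a mean above 1 TPM in at least 1 condition were tested on the deposited counts with edgeR 4.0.16 (quasi-likelihood test, TMM scaling, only the 2 groups compared) in R 4.3.3, with Benjamini-Hochberg adjustment over 16091 genes. SE is the fold change over the root of F. Calls need a change over 25% with adjusted p below 0.05 against Uninjured Control, or unadjusted p below 0.001 between treatments. Exact permutation tests used log2(CPM + 1) with TMM scaling. DESeq2 1.42.0, limma 3.58.1 on log2(TPM + 1) and log2(TPM + 0.1), other scaling and filters, all 3 groups in 1 fit, a replicate block and leaving out each mouse were alternatives. Scripts were tested on simulated data. Mice were grouped by their labels, each taken as a separate animal.

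Members and lists were chosen with earlier results of these data known. The text names all 8 members, up to 3 called genes of smallest p per list, direction and comparison, and the 10 genes most like the members, of which 1 is not reported here. The lists were other smooth muscle apparatus, regulators, non-muscle counterparts, and markers of pericytes, fibroblasts, endothelium, skeletal muscle, cardiac muscle, liver and spinal cord cells.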

Additional observations from a re-analysis of the deposited data

Results flagged for a closer look

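Of 24 sets of values tested for a mouse far from the rest of its group, 6 held one, where chance gives about 1 in 20. Myh11 was 42.87 TPM in SCI + Atorvastatin replicate 7, above 13.1 to 24.49 TPM in the other 6 mice. Cnn1 was 4.3 TPM in SCI + Vehicle replicate 1, above 0.21 to 1.74 TPM. Des was 35.75 TPM in SCI + Vehicle replicate 3, above 0.98 to 8.13 TPM, and 169.87 TPM in SCI + Atorvastatin replicate 2, above 1.43 to 10.26 TPM. These mice also had the highest summed skeletal muscle transcript of their groups, 1613.24 TPM in SCI + Vehicle replicate 3 and 6344.61 TPM in SCI + Atorvastatin replicate 2.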

How the results depend on the processing

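Of the single-gene values recomputed, 375 kept their direction and side of the threshold, 32 passed a threshold they had missed, 5 no longer passed and 12 changed sign, and of the counts of called genes 98 stayed within 1.5 times and 26 moved. Between the treatments, the 0 members called became 2 with DESeq2, 1 without a filter on low genes, 3 at unadjusted p below 0.05, and 0 to 1 when each mouse was left out in turn, with 1 called without SCI + Atorvastatin replicate 4 or SCI + Vehicle replicate 2 or 5. Over all genes, the 17 called became 37 with DESeq2, 19 without a filter and 669 at unadjusted p below 0.05. With each of those mice left out they numbered 13, 31 and 11. Against Uninjured Control, the 1 member called in SCI + Vehicle became 2 with DESeq2, 3 with all 3 groups in 1 fit, 4 with limma on log2(TPM + 0.1) and 3 on log2(TPM + 1). It became 0 with the filter in every condition, 2 without a filter and 2 without SCI + Vehicle replicate 4. Over all genes, the 4726 called became, in the same order, 6000, 6586, 4921, 4452, 2398 (of 12559 tested), 4835 (of 20979 tested) and 4151. The 3 called in SCI + Atorvastatin became 5 with limma at either pseudocount and 3 to 6 leaving out a mouse (6 and 5 without control replicates 1 and 2). The apparatus genes called, 8 in SCI + Vehicle and 10 in SCI + Atorvastatin, became 5 in the former with limma on log2(TPM + 1).

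Signs changed for 3 members. Cnn1 between the treatments ran from -0.54 to 0.13 leaving out a mouse, and Des from -0.79 to 2.70. Des in SCI + Vehicle against the controls was -0.064 without the libraries high in skeletal muscle transcript (chosen after seeing the data, as was leaving out SCI + Vehicle replicates 4 and 7) and ran from -0.064 to 1.11 leaving out a mouse. Myl9 against the controls was 2.70 with vehicle and 3.60 with atorvastatin in limma on log2(TPM + 0.1), 1.11 and 1.97 on log2(TPM + 1), and ran from -2.01 to 10.43 and from -1.23 to 11.25 leaving out a mouse. Fits against a lone control at 0 depend on the prior count. The cause of the other changes was not tested.

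Replicate numbers did not pair the mice: deviations of same-numbered SCI mice correlated at -0.193 to 0.111, and 0 of 7 correlated best with their own number. With the replicate block, the members called were 1 between the treatments (Smtn, edgeR unadjusted p = 0.000799) and 0 in both comparisons with the controls, the apparatus genes called were 0 in both, and Myl9 against the controls was 2.94 with vehicle and 3.29 with atorvastatin. Of all genes, the block left 8 called between the treatments, 16 in SCI + Vehicle and 0 in SCI + Atorvastatin. Depth limits Myocd and Cnn1, which had at most 37 and 76 counts in an SCI mouse.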
